A study of Arabidopsis thaliana with 8 samples.

Results

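Transcript ranks of wild-type (WT) mesophyll protoplasts were set against those of mock-treated whole seedlings of Arabidopsis thaliana. The comparison was chosen by array title, and it holds 4 of the 8 Affymetrix arrays of the study, 2 per group. The WT protoplasts came from leaves of 5-week-old Col-0 plants grown on soil in long days, and their treatment is labelled as none. The mock seedlings were 2 weeks old and belonged to the line ORE1-IOE in Col-0, in which estradiol induces the NAC transcription factor gene ORE1. They had been germinated on half-strength MS medium with sucrose, moved to shaken liquid MS medium and kept for 2 h with 0.1% ethanol in place of estradiol. The remaining arrays, protoplasts 6 h into expression of 35S:ORE1 and seedlings with 10 µM estradiol, entered alternatives alone. When the WT protoplasts were harvested, whether they were mock-transfected and how many independent ORE1-IOE lines were used could not be learned from the labels. The labels also do not say whether the 2 arrays of a group come from separate plants or preparations, so the p-values may measure technical spread.

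The groups differ at once in tissue, age, growth medium, genotype, protoplast isolation, mock treatment and the processing of their array values. These cannot be told apart in any difference described below.

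Mesophyll cells are the photosynthetic cells between the epidermal layers of a leaf, and enzymes that digest the wall release them as protoplasts. A protoplast therefore lacks its wall and its neighbours, and it is known to start rebuilding a wall and to mount wound and defence responses. A whole seedling holds roots, vascular tissue, epidermis, stomata, trichomes and growing meristems beside its mesophyll.

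The deposited log2 values of both systems lie on different scales. Medians were 3.34 and 3.38 on the WT arrays and 6.75 and 6.71 on the mock arrays. On the WT arrays 41.6% and 40.7% of all probe sets were no more than 0.1 above the array's lowest value, against 0.0176% and 0.0528% on the mock arrays. Each array was therefore turned into percentile ranks from 0 to 100 over its 22746 probe sets that are not controls, and ranks alone were compared. A rank places a probe set among all others of its array and is no amount of RNA. Ranks of different probe sets also depend on how well their probes bind, so comparisons below are between arrays for the same probe set. A difference is given in percentile points, as WT protoplasts minus mock seedlings unless a direction is stated. Where ranks are set against each other, those of the 2 WT arrays come first and those of the 2 mock arrays second. An error after ± is the standard error (SE) of the difference, with n = 2 arrays per group, and that number limits the precision.

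Replicate arrays ranked the probe sets alike. Over 22746 probe sets the rank correlation was 0.965 between the WT arrays, 0.991 between the mock arrays and 0.790 to 0.801 across systems. As arrays of one platform share probe binding, these are descriptions without a test. The median absolute rank difference was 1.03 points within the WT pair, 1.76 points within the mock pair and 9.61 to 10.0 points across systems.

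A probe set was tested when its rank was at least 50 on at least 2 of the 4 arrays, which held for 12762 probe sets. Limma, a linear model that shares information on spread across probe sets, called 8093 of them at an adjusted p under 0.05 (63.4%). Of these, 4397 ranked higher in WT protoplasts (34.5%) and 3696 lower (29.0%). As most tested probe sets passed, a second rule also asked for at least 20 points. It left 1221 higher (9.57%) and 1552 lower (12.2%) probe sets, 2773 in all (21.7%). The plot of mean ranks shows both sets on either side of the diagonal. An exact permutation test of 2 arrays against 2 cannot give a two-sided p below 0.333, so none was used.

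**Figure D1:**
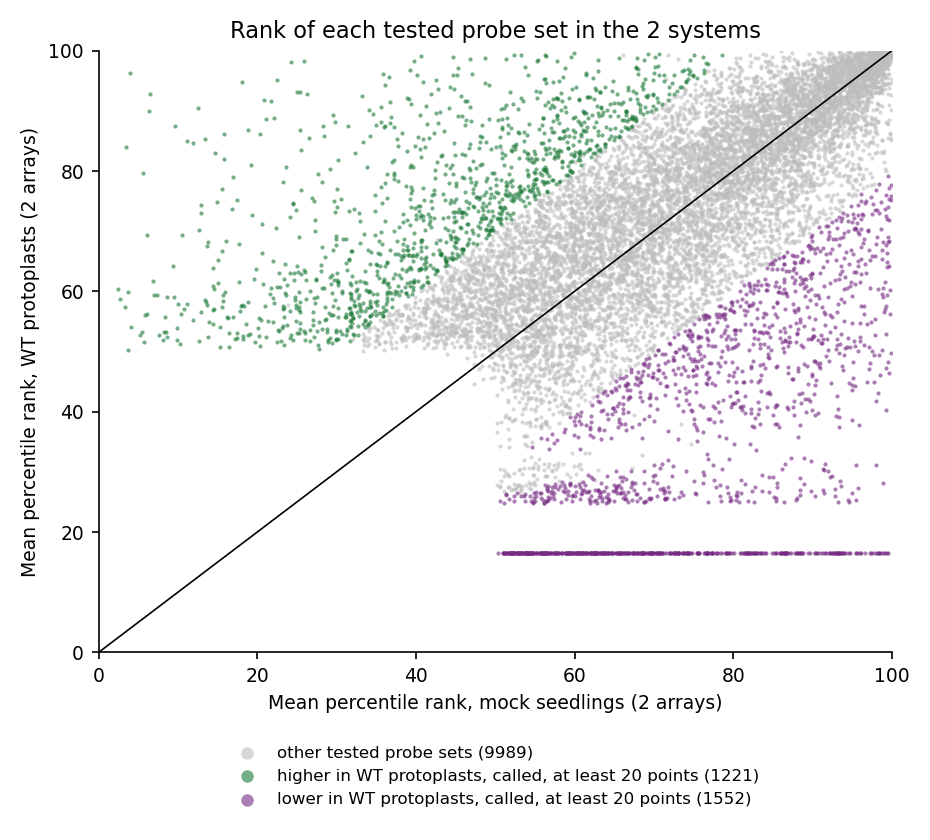
Mean percentile rank of each of the 12762 tested probe sets in mock seedlings (x axis, 2 arrays) and WT protoplasts (y axis, 2 arrays), with the line of equal ranks. Green points are the 1221 probe sets called higher in WT protoplasts by at least 20 points and purple points the 1552 called lower. The purple band near rank 16.5 holds probe sets at the tied lowest value on both WT arrays.

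The filter shapes these counts. Of the tested probe sets, 9258 ranked at least 50 on all 4 arrays, and 54.5% of them were called, 30.5% higher and 24.0% lower. The second rule kept 794 of those (8.58%), 4.1% higher and 4.47% lower. Among the 4828 named genes of that class 54.3% were called, 31.2% higher and 23.1% lower, and 7.71% passed the second rule, 4.33% higher and 3.38% lower. A further 1340 entered through the WT arrays alone and 1415 through the mock arrays alone, and these had to differ. At the border of the filter, 697 probe sets had exactly 3 arrays and 2807 exactly 2 arrays at rank 50 or above, while 755 untested ones had 1. At the border of the second rule, 718 called probe sets differed by 20 to 25 points and 1192 by 15 to 20 points. On both WT arrays 844 tested probe sets lay within 0.1 of the lowest value, where ranks up to 41.6 carry no order. For such a probe set the difference is given below as a bound, at least N points, which places it at rank 41.6 in WT protoplasts. The same was done for the single array of a gene that lay there on 1 WT array, and its bound carries no SE. By that bound 1267 probe sets were lower by at least 20 points (9.93%). An adjusted p printed for a gene with a bound is from its ranks without the bound. Where both WT arrays hold the tied lowest value, their spread comes from the tie and does not measure replicates.

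Gene names were available for 13355 genes, of which 6749 were tested and 4285 called (63.5%), 1397 of them by at least 20 points (20.7%). Of these genes, 2424 were called higher (35.9%) and 1861 lower (27.6%), and with at least 20 points 679 higher (10.1%) and 718 lower (10.6%), or 570 by the bound (8.45%). Their median difference was 1.01 points. These shares are the background for every gene list below. A gene that entered the test through 1 system alone had its direction fixed by the filter. That holds for each gene below with both ranks of 1 group at 50 or above and both of the other group under 50. The p-value of such a gene does not bear on its direction. Where a counted list holds several such genes, they are named or the genes ranked at least 50 on all 4 arrays are counted too. Adjusted p-values below are from limma over all 12762 probe sets. Where leaving out 1 array ended the call of a gene, the end of its paragraph says so. So it does where a called difference was over 1.5 times larger or smaller between the other 4 arrays, 35S:ORE1 protoplasts minus estradiol seedlings. The 35S:ORE1 and WT protoplast arrays titled 1st held equal values at 13464 of 22746 probe sets, and those titled 2nd at 11101. The other 4 arrays are therefore no independent check. Genes given as not passing, and NAI1, NAI2, IQD22, PSBY and PSBW, were picked after their values were seen.

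Nuclear genes for photosynthesis ranked lower in WT protoplasts than in seedlings. Of 7 tested light-harvesting and photosystem genes 6 were called lower and 1 did not pass, with 3 lower by at least 20 points. Their median difference was -20.4 points, or -11.6 with LHCB4.3 at its bound. PSAN, a subunit of photosystem I, ranked 41.5 and 52.7 on the WT arrays and 96.2 and 98.0 on the mock arrays. Its WT ranks lay under its mock ranks, by at least 49.9 points (adjusted p = 0.00253 for the ranks without the bound). The antenna gene LHCB4.2 ranked 54.7 and 54.1 against 87.3 and 95.9, and its paralog LHCB4.1 79.4 and 79.0 against 99.5 and 99.6. They were lower by 37.2 ± 3.30 and 20.4 ± 0.914 points. PSAE-1, another photosystem I subunit gene, ranked 88.4 and 88.6 against 99.5 and 99.7. The photosystem II subunit genes PSBY (86.9 and 86.7 against 96.7 and 96.6) and PSBW (90.1 and 92.2 against 97.9 and 98.6) were lower by 9.89 and 7.12 points. LHCB4.3 ranked 38.1 and 16.4 against 52.2 and 54.2 and did not pass (adjusted p = 0.0572). In bulk samples such as these, fewer cells of a type and less RNA per cell cannot be told apart. With WT array 1, mock array 1 or mock array 2 left out the call of PSBW was lost (highest adjusted p = 0.0577). Between the other 4 arrays the difference of PSBY was -17.8 points.

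Genes of carbon fixation followed the same direction, with 3 of 3 tested Calvin cycle genes called lower. PRK, which encodes phosphoribulokinase, ranked 48.5 and 40.4 against 95.0 and 95.0, lower by at least 49.9 points. Its adjusted p was 0.00126 for the ranks without the bound, and it entered through the mock arrays alone. SBPASE, the gene of sedoheptulose bisphosphatase, ranked 67.0 and 67.1 against 91.0 and 89.5, and RCA, the gene of Rubisco activase, 88.3 and 88.0 against 99.1 and 99.5. Both pairs of WT ranks lay below the mock ranks, by 23.1 and 11.2 points. HPR, the peroxisomal hydroxypyruvate reductase of photorespiration, ranked 56.7 and 52.9 against 95.3 and 94.7, lower by 40.2 ± 1.67 points (adjusted p = 0.000622). Transcripts of RCA, PSAE-1, PSBY and PSBW ranked between 86.7 and 92.2 on the WT arrays, the last 2 picked after their values were seen. PRK and HPR ranked between 40.4 and 56.7 there, and PSAN, LHCB4.2 and LHCB4.3 were also far below those 4 genes. The mesophyll label was not tested by these ranks.

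Chlorophyll synthesis genes went both ways. Of 7 tested genes 3 were called lower and 1 higher. Their median of -3.26 points became -0.580 without WT array 1, -5.94 without WT array 2 and 0.609 over the genes ranked at least 50 on all 4 arrays. PORB, a light-dependent protochlorophyllide oxidoreductase, ranked 43.6 and 50.05 against 84.5 and 91.9, lower by 41.3 ± 3.74 points. CHLM, which methylates magnesium protoporphyrin, ranked 50.8 and 45.9 against 75.8 and 75.5, lower by 27.2 ± 2.03 points. HEME2, a uroporphyrinogen decarboxylase gene, was lower by 13.8 points. HEMA2 stood on the other side. This glutamyl-tRNA reductase gene, which acts at the start of the pathway, ranked 91.8 and 91.1 in WT protoplasts and 58.5 and 54.8 in seedlings, higher by 34.8 ± 1.65 points (adjusted p = 0.000771). The other 3 tested genes, HEME1, HEMB1 and GSA1, did not pass. HEME2 had -6.46 points between the other 4 arrays.

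**Figure D2:**
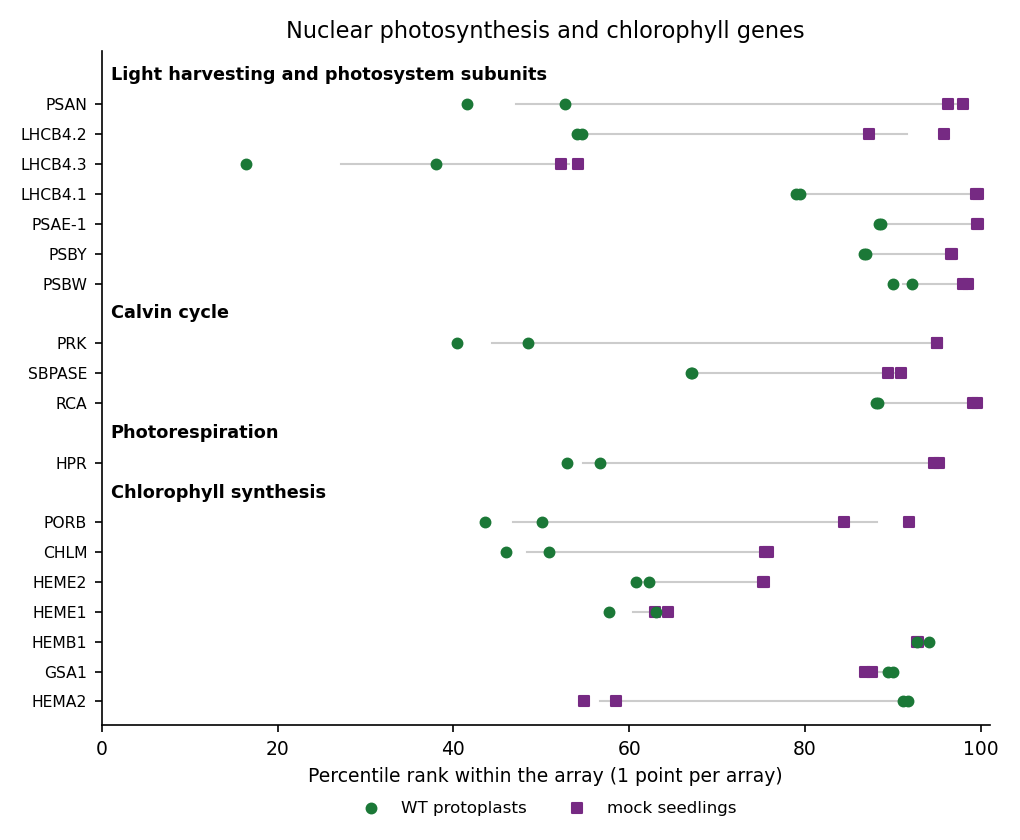
Percentile rank on each array (x axis) of the tested nuclear photosynthesis, photorespiration and chlorophyll synthesis genes. Green circles are the 2 WT protoplast arrays, purple squares the 2 mock seedling arrays, and grey lines join the group means. PSAN, PRK and PORB show the widest gaps to the left, and HEMA2 is the gene with its WT arrays far to the right.

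A wider family of nuclear genes for photosystem assembly, the NDH complex and plastid electron transport was lower in 11 and higher in 3 of 19 tested genes, with a median of -12.2 points. By at least 20 points 6 were lower, or 5 by the bound. Through the mock arrays alone entered 3 of the 19, CaS, HCF101 and NdhL, and through the WT arrays alone 1. Over the 15 ranked at least 50 on all 4 arrays 3 were higher and 8 lower, with a median of -10.7 points. PSB27, known from photosystem II repair, ranked 62.1 and 60.9 against 95.3 and 94.4, lower by 33.3 ± 1.07 points. CaS, a calcium-binding thylakoid protein gene, ranked 49.5 and 36.9 against 80.6 and 80.5, at least 34.9 points lower, and HCF101, an iron-sulfur assembly gene, 49.9 and 42.4 against 78.8 and 71.9. NdhL was at the lowest value on both WT arrays and ranked 54.1 and 58.3 in seedlings, at least 14.5 points apart. PGRL1B, of cyclic electron flow (81.6 and 80.8 against 65.2 and 70.9), NTRC, a thioredoxin reductase gene (82.2 and 83.7 against 74.2 and 71.6), and LPA19 (58.7 and 60.8 against 54.2 and 52.8) were the called exceptions. They were higher in WT protoplasts by 13.1, 10.1 and 6.21 points. PGRL1B did not pass with either WT array left out (highest adjusted p = 0.0612). The call of LPA19 ended when WT array 2, mock array 1 or mock array 2 was left out (highest adjusted p = 0.0881).

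Genes encoded in the plastid genome had a median difference close to that of all genes. All 69 listed plastid-encoded genes were tested. Of them 19 were called higher and 6 lower in WT protoplasts, and 3 were higher by at least 20 points. The median difference was 0.851 points, or 0.234 to 1.74 with 1 array left out, beside 1.01 over all tested genes. Limma called 0 of 5 photosystem I genes and 0 of 6 cytochrome b6f genes, and an unadjusted p under 0.05 was reached by 0 and 1. Of 15 photosystem II genes 2 were higher and 1 lower. The reaction centre gene psbA ranked 92.2 and 92.5 against 83.8 and 83.9, higher by 8.49 ± 0.91 points (adjusted p = 0.00415), and psbT was higher by 5.93 points. The Rubisco large subunit gene rbcL, in none of the subgroups and named here after its value was seen, was lower by 10.9 ± 2.1004 points. With either WT array left out the call of psbT was lost (highest adjusted p = 0.0786). rbcL did not pass with either mock array left out (highest adjusted p = 0.0881). For psbA and psbT the other 4 arrays gave 5.52 and 13.8 points.

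Plastid NDH genes were called higher in 5 of 10 cases, the other 5 not passing, with ndhJ higher by 14.4 and ndhH by 13.4 points. Ribosomal protein genes were higher in 6 and lower in 1 of 15 cases, with a median of 8.19 points. That median was 5.24 without mock array 2 and -0.504 over the genes ranked at least 50 on all 4 arrays. The ribosomal protein gene rps15 ranked 85.7 and 85.4 in WT protoplasts and 52.5 and 48.7 in seedlings, and rps16 64.4 and 67.7 against 41.0 and 37.0. Their differences, 35.0 ± 1.67 and 27.0 ± 2.11 points, were the largest of the plastid list. Of the 6 ATP synthase genes atpF ranked 78.2 and 77.3 against 54.2 and 55.3 and atpI 69.6 and 70.3 against 48.2 and 51.9, while the other 4 did not pass. The RNA polymerase genes rpoC2 and rpoB were higher by 17.3 and 13.6 points and rpoA was lower by 5.04. Organelle transcripts mostly lack the poly(A) tails that some labelling methods prime on. The labels do not name the primers, and the part of labelling in these ranks was not tested. The call of ndhH ended when either WT array was left out (highest adjusted p = 0.126). With any array left out the call of rpoA was lost (highest adjusted p = 0.12). Between the other 4 arrays the difference of rpoA was -2.69 points. Without mock array 1 the difference of ndhH was 8.85 points.

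Mitochondrion-encoded genes were higher in 6 and lower in 2 of 12 tested cases, 4 of the higher ones by at least 20 points, with a median of 9.48 points. Of these genes 3 entered through the WT arrays alone, and among the 7 ranked at least 50 on all 4 arrays 2 were higher and 2 lower. Over the latter the median was 4.66 points. The oxidase subunit gene cox2 ranked 80.8 and 75.6 against 52.7 and 51.1, higher by 26.3 ± 2.204 points. The complex I genes nad7 (52.7 and 50.9 against 25.5 and 27.8), nad5 (56.8 and 55.8 against 31.5 and 30.8) and nad6 (59.2 and 58.2 against 38.4 and 35.6) were also higher, and these 3 are the genes that entered through the WT arrays alone. The cytochrome c maturation gene ccb452 and nad1 were lower by 10.5 and 9.84 points. The probe sets of nad6 and ccb452 carry a suffix that marks probes shared by several transcripts. nad1 did not pass with either WT array left out (highest adjusted p = 0.127).

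Of 6 tested markers of cell types other than mesophyll, 5 were called, all lower in WT protoplasts. PYK10, SWEET11, FMA, YAB3 and SIM entered the test through the mock arrays alone, so the filter fixed their direction, and AT5G06700 ranked at least 50 on all 4 arrays. PYK10, a beta-glucosidase of root and seedling ER bodies, ranked 98.2 and 98.9 in seedlings and was at the lowest value on both WT arrays, at least 56.9 points apart. SWEET11, a sucrose exporter of phloem parenchyma, ranked 95.4 and 93.9 in seedlings and was at the lowest value on both WT arrays, at least 53.0 points apart. FMA, also called FAMA, a factor of guard cell and myrosin cell fate, was at the lowest value on both WT arrays and ranked 50.2 and 54.1 in seedlings, at least 10.5 points apart. YAB3, a YABBY factor of young lateral organs, lay within 0.1 of the lowest WT values and ranked 56.5 and 56.6 in seedlings. AT5G06700, listed as TRICHOME BIREFRINGENCE, ranked 53.9 and 50.7 in WT protoplasts and 84.9 and 80.5 in seedlings, lower by 30.4 ± 2.198 points. SIM, a cell cycle inhibitor of trichomes, ranked 16.7 and 45.3 against 59.8 and 61.0, with 1 WT array at the lowest value, and did not pass. These lists hold few tested genes: 1 of 4 listed root markers, 1 of 2 vascular, 1 of 5 guard and myrosin cell, 2 of 4 trichome and 1 of 4 meristem and organ growth markers. None of the 2 root hair markers, the 4 division kinase and checkpoint genes listed with cyclins or the 1 cuticle gene reached the filter. Of the markers tested, PYK10, SWEET11 and FMA were thus at the lowest value in WT protoplasts, and the part of such cells in the differences below was not tested.

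The genes of the ER body, a store of beta-glucosidase in root and seedling epidermis, were lower as a group. All 7 tested genes of this family were called lower, 6 by at least 20 points, with a median of -58.0 points or -51.2 by the bound. All 7 entered the test through the seedling arrays alone, so their direction was fixed by the filter. The jacalin-like gene JAL22 was at the lowest value on both WT arrays and ranked 90.9 and 95.1 in seedlings, at least 51.4 points apart. JAL23, another jacalin-like gene, was at least 51.2 points apart. JAL33 ranked 16.7 and 46.9 against 89.4 and 90.2, so that 1 WT array was at the lowest value and the other was not, and it was at least 45.5 points lower. NAI2 and NAI1, which are needed to form ER bodies, ranked 36.3 and 47.8 against 90.8 and 88.0 and 42.1 and 38.7 against 56.7 and 56.7. Both NAI genes were called lower, by at least 44.7 and 14.9 points. The call of JAL33 ended when either mock array was left out (highest adjusted p = 0.0904). NAI1 had -8.05 points between the other 4 arrays.

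The 12 listed genes that were lower by the widest margin were all at the lowest value on both WT arrays. All 12 entered the test through the mock arrays alone, so the filter fixed their direction. They were AT1G29670, AT5G62360, PYK10, AT1G23130, AT3G16370, LCR69, SWEET11, AT5G44020, AT4G23680, AT5G22580, AT1G22690 and BCAT4. Their differences were at least 51.6 to at least 57.4 points. AT1G29670 ranked 99.0 and 99.1 in seedlings, and AT5G62360 98.6 and 98.8, near the top of their arrays. LCR69, a plant defensin gene, ranked 97.2 and 93.8 and its relative LCR68 92.8 and 83.5 in seedlings, and both were at the lowest value in WT protoplasts. BCAT4, which starts the chain elongation of methionine for aliphatic glucosinolates, ranked 96.5 and 90.1 in seedlings. GTR2, a glucosinolate transporter gene, ranked 49.5 and 47.3 against 91.4 and 89.3 and was lower by 42.0 ± 1.42 points. Both BCAT4 and GTR2 entered through the mock arrays alone. The other 2 of 4 tested glucosinolate genes, GTR1 and UGT74B1, did not pass (adjusted p = 0.428 and 0.202).

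Among genes ranked at least 50 on all 4 arrays, the widest differences downward were those of AT2G41090, AT1G04430, AT3G26450, AT4G18030, AT4G30470, HPR, AT1G09310 and AT3G52500. They ranged from 38.9 to 45.2 points. AT1G09310 ranked 99.8 and 99.9 in seedlings and 60.5 and 59.99 in WT protoplasts, lower by 39.6 ± 0.919 points (adjusted p = 0.000276). AT2G41090 ranked 96.8 and 98.9 in seedlings and 52.9 and 52.5 in WT protoplasts. For AT4G30470 the difference was -40.3 points here and -25.3 points between the other 4 arrays.

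SWEET sugar transporters were called in all 5 tested cases, 4 lower and 1 higher. In this list 3 entered through the mock arrays alone, and of the 2 ranked at least 50 on all 4 arrays 1 was higher and 1 lower. SWEET1 was at the lowest value on both WT arrays and ranked 79.5 and 73.5 in seedlings, at least 34.9 points apart. SWEET16 lay within 0.1 of the lowest value on both WT arrays, at least 22.3 points below seedlings. SWEET17, a fructose carrier of the vacuole, ranked 55.9 and 56.2 against 91.9 and 92.6, lower by 36.2 ± 0.949 points. SWEET2, also a vacuolar carrier, went the other way, with 89.0 and 89.3 against 66.1 and 68.4 and a difference of 21.9 ± 1.24 points. With either mock array left out the call of SWEET16 was lost (highest adjusted p = 0.0906).

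Genes of the cytoskeleton and of wall growth were mostly called lower in WT protoplasts, several after entering through the mock arrays alone. Of 6 tested tubulin genes 5 were lower and 1 higher, with a median of -19.1 points. Among them 2 entered through the mock arrays alone, and 1 was higher and 2 lower of the 3 ranked at least 50 on all 4 arrays. TUB5 was at the lowest value on both WT arrays and ranked 81.7 and 81.9 in seedlings, at least 40.1 points apart. TUB6 ranked 38.3 and 43.4 against 87.6 and 86.1, lower by at least 44.3 points, and TUB7 48.2 and 54.1 against 82.5 and 78.7, lower by 29.4 ± 2.75 points. TUB9 was lower by 8.86 points from ranks of 97.8 and 97.3 in seedlings. The alpha-tubulin gene TUA1 was higher by 3.64 points. Tubulin genes resemble each other closely, and how far their probe sets respond to paralogs was not tested. TUA1 did not pass with any array left out (highest adjusted p = 0.194). For TUA1 the other 4 arrays gave 1.46 points.

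Of 9 tested expansin and xyloglucan endotransglucosylase (XTH) genes, whose products loosen or remodel walls, 5 were lower, 1 higher and 3 not called. The median was -34.6 points, or -26.3 by the bound. Of these genes 1 entered through the WT arrays alone and 4 through the mock arrays alone, and among the 2 ranked at least 50 on all 4 arrays 0 were higher and 0 lower. XTH16 was at the lowest value on both WT arrays and ranked 81.1 and 82.2 in seedlings, at least 40.01 points apart. XTH32 ranked 35.5 and 41.6 against 95.9 and 94.1 and the expansin-like gene EXLA1 50.2 and 44.9 against 94.4 and 93.1. XTH32 was lower by at least 53.4 points and EXLA1 by 46.19 ± 2.19 points. For EXPA4 the mock arrays themselves spread from 58.7 to 77.1, and the WT arrays lay within 0.1 of their lowest value, at least 26.3 points lower. XTH29 went against the list, with 71.2 and 69.8 in WT protoplasts and 21.8 and 23.0 in seedlings, higher by 48.1 ± 1.13 points (adjusted p = 0.000279). It is the gene that entered through the WT arrays alone, so the filter fixed its direction. The call of EXPA4 ended when WT array 1, mock array 1 or mock array 2 was left out (highest adjusted p = 0.115).

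Of 7 tested genes for wall polysaccharide synthesis 5 were lower and 1 higher. In this list 3 entered through the mock arrays alone, and of the 4 ranked at least 50 on all 4 arrays 1 was higher and 3 lower. COB, the gene of COBRA, which orients cellulose deposition in growing roots, ranked 73.1 and 66.1 against 96.7 and 95.0, lower by 26.3 ± 2.78 points. CSLC5, of the xyloglucan backbone synthase family, was at the lowest value on both WT arrays and ranked 71.8 and 69.4 in seedlings. Its relative CSLC04 ranked 71.3 and 67.5 against 89.4 and 88.3, lower by 19.4 points, and IRX15-L, of xylan synthesis, was at least 21.9 points lower. CSLD2, of the cellulose synthase-like D family, known from tip growth, was higher by 9.38 ± 1.35 points. The pectin methylesterase genes PMEPCRF and ATPMEPCRB ranked 16.7 and 48.1 against 89.7 and 88.1 and 34.4 and 47.2 against 84.2 and 77.9, both called lower, by at least 44.0 and 36.6 points, and both entered through the mock arrays alone. Of 15 listed GH9 cellulase genes 2 were tested. GH9B7 and GH9C2 were at the lowest value on both WT arrays and ranked 92.6 and 88.1 and 85.5 and 80.3 in seedlings. Both entered the test through the seedling arrays alone. With either mock array left out the calls of IRX15-L and PMEPCRF were lost (highest adjusted p = 0.103). Between the other 4 arrays the difference of CSLC04 was -31.1 points.

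**Figure D3:**
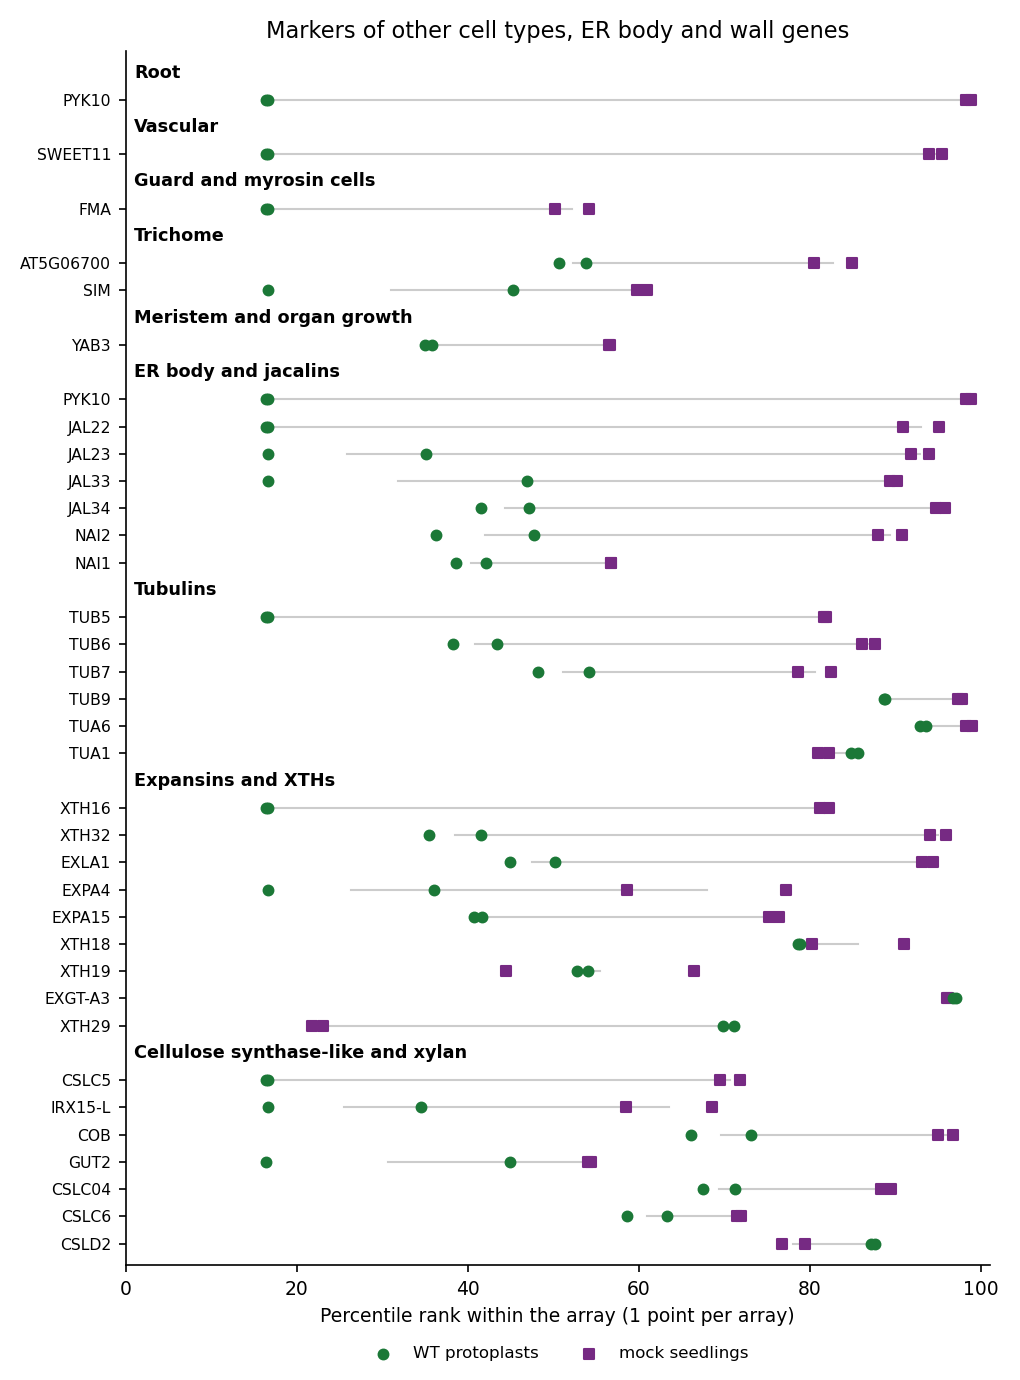
Percentile rank on each array (x axis) of the tested markers of other cell types and of the tested ER body, tubulin, expansin, XTH and wall polysaccharide genes. Green circles are the 2 WT protoplast arrays, purple squares the 2 mock seedling arrays, and grey lines join the group means. Circles near 16.5 are at the tied lowest value of a WT array. XTH29, CSLD2 and TUA1 are the genes called higher in WT protoplasts.

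IQD, RALF and serine carboxypeptidase-like genes come next, and in each list many genes entered through the mock arrays alone. Of 7 tested IQD genes, whose calmodulin-binding products act at microtubules, 6 were lower and 1 did not pass. Among them 4 entered through the mock arrays alone, and 0 were higher and 2 lower of the 3 ranked at least 50 on all 4 arrays. IQD22 ranked 59.3 and 58.2 against 80.8 and 81.4, lower by 22.4 ± 1.01 points. The genes IQD24, iqd21 and IQD28 were at the lowest value on both WT arrays, at least 15.4, 11.5 and 10.8 points below seedlings, so by the bound 1 IQD gene passed 20 points. RALF peptide genes, whose products signal on wall state and growth, were lower in 4 of 5 tested cases. Of these genes 2 entered through the mock arrays alone, and among the 3 ranked at least 50 on all 4 arrays 0 were higher and 2 lower. RALFL34 ranked 44.6 and 35.0 against 92.3 and 89.0, lower by at least 47.5 points, and RALFL22 70.6 and 73.7 against 90.704 and 88.8, lower by 17.6 ± 1.61 points. Of 11 tested serine carboxypeptidase-like genes 7 were lower and 1, scpl48, higher by 5.37 points. In this list 6 entered through the mock arrays alone, and of the 4 ranked at least 50 on all 4 arrays 1 was higher and 0 lower. The median of all tested was -23.1 points, but 2.92 over those ranked at least 50 on all 4 arrays. scpl35 and scpl26 were at the lowest value on both WT arrays, at least 34.1 and 29.1 points below seedlings. scpl48 did not pass with either WT array left out (highest adjusted p = 0.0737).

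The TBL family of wall polysaccharide acetylation was divided. Of 10 tested genes 5 were lower and 2 higher, with a median of -4.87 points. Among them 1 entered through the WT arrays alone and 3 through the mock arrays alone, and 0 were higher and 2 lower of the 5 ranked at least 50 on all 4 arrays. TBL25, TBL26 and TBL38 were at the lowest value on both WT arrays, and TBL25 ranked 82.6 and 82.9 in seedlings, at least 41.1 points apart. TBL41 ranked 80.4 and 76.7 in WT protoplasts and 51.9 and 49.7 in seedlings, higher by 27.8 ± 1.81 points, and TBL32 was higher by 23.0 ± 1.35 points. TBL32 entered through the WT arrays alone, and its probe set carries a suffix that marks probes shared by several transcripts. Among LIM and myosin genes of the actin cytoskeleton, WLIM2a and WLIM1 were lower and PLIM2b and the myosin gene XI-I higher, the last by 6.97 ± 1.71 points. WLIM2a was at least 41.8 points lower. WLIM1 ranked 68.3 and 68.6 against 88.2 and 86.7, and PLIM2b 62.8 and 60.4 against 38.3 and 40.3. The call of XI-I ended when WT array 2, mock array 1 or mock array 2 was left out (highest adjusted p = 0.128). TBL41 and XI-I had 13.4 and 3.49 points between the other 4 arrays.

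In the other direction, the 12 listed genes higher in WT protoplasts by the widest margin ranged from 60.4 to 77.9 points. They were AT3G53600, AtS40-3, BGLU27, BGLU46, AT1G26390, AT3G61930, AT3G55890, AT5G58840, BGLU45, UGT73D1, AT3G61390 and CCOAMT. AT3G53600 ranked 88.0 and 87.1 in WT protoplasts and 10.4 and 8.92 in seedlings, a difference of 77.9 ± 1.098 points (adjusted p = 0.000216). AtS40-3, of a family linked to leaf senescence, ranked 83.4 and 86.5 against 9.38 and 13.0, higher by 73.8 ± 2.004 points. AT3G55890 had the widest spread of these genes in seedlings, with 14.6 and 29.6 against 89.9 and 87.8 in WT protoplasts. The rule that chose these 12 asked for groups that do not overlap. All 12 entered the test through the WT arrays alone, so the filter fixed their direction.

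Beta-glucosidase genes, many of which act on defence compounds and lignin precursors, stood at both ends. Of 9 tested BGLU genes 5 were higher and 2 lower, all 5 and 2 by at least 20 points, with a median of 20.9 points. Of these genes 3 entered through the WT arrays alone and 1 through the mock arrays alone, and among the 5 ranked at least 50 on all 4 arrays 2 were higher and 1 lower. Over the latter the median was 10.6 points. BGLU46 and BGLU45, which act on monolignol glucosides, ranked 92.8 and 93.5 against 27.4 and 22.5 and 86.5 and 85.6 against 25.2 and 15.4. They were higher by 68.2 ± 2.05 and 65.8 ± 3.75 points. BGLU27 ranked 85.6 and 80.5 against 14.8 and 14.4 and BGLU16 95.5 and 94.3 against 67.2 and 62.5. BGLU44 and BGLU40 were lower, with 48.7 and 40.8 against 94.7 and 94.5 and 50.4 and 53.7 against 91.0 and 88.6. The differences of the latter were 49.9 ± 3.06 and 37.7 ± 1.73 points. PYK10 is itself a beta-glucosidase gene but is counted with the ER body. For BGLU40 the other 4 arrays gave -0.692 points.

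Phenylpropanoid and lignin genes were higher where called. CCOAMT, a caffeoyl-CoA O-methyltransferase gene, ranked 96.4 and 96.0 in WT protoplasts and 33.4 and 38.3 in seedlings, higher by 60.4 ± 2.01 points (adjusted p = 0.000425), and entered through the WT arrays alone. CCR2, a cinnamoyl-CoA reductase gene, ranked 89.4 and 86.5 against 65.3 and 50.8, higher by 29.8 ± 5.54 points. HCT, which acts earlier in the pathway to monolignols, ranked 96.5 and 96.3 against 96.2 and 95.1 and did not pass. Of 4 tested class III peroxidase genes, whose products can polymerise lignin, 3 were higher and 1 lower. Of these genes 1 entered through the WT arrays alone and 1 through the mock arrays alone, and the 1 gene ranked at least 50 on all 4 arrays was higher. PRX52 ranked 99.1 and 99.1 against 42.6 and 38.7, higher by 58.5 ± 1.70 points, and Prx37 84.6 and 83.8 against 59.0 and 42.4. AT5G64120, listed as peroxidase 71, was higher by 5.34 points from ranks near the top of both systems. PRXR1 was the reverse, with 48.4 and 46.1 against 99.1 and 99.4 and a fall of 52.0 ± 1.23 points. With either WT array left out the calls of CCR2, Prx37 and AT5G64120 were lost (highest adjusted p = 0.0741).

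Among genes ranked at least 50 on all 4 arrays, the widest differences upward were those of AT1G26380, CHI, AT1G15180, AT1G19200, AT1G10140, AT5G44390, ChiC and AT2G31945, from 37.4 to 43.7 points. CHI and ChiC, both listed as chitinase genes, ranked 98.4 and 98.3 against 50.6 and 60.1 and 95.4 and 94.1 against 54.2 and 60.4. They were higher by 43.0 ± 3.62 and 37.4 ± 2.48 points. AT1G26380 ranked 97.5 and 97.2 against 53.2 and 54.2, and its neighbour in number AT1G26390 93.9 and 92.4 against 22.8 and 28.1. Between the other 4 arrays the differences of AT1G19200, AT2G31945 and ChiC were 23.4, 24.0 and 19.3 points.

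Of 6 tested salicylate and defence genes 4 were higher and 2 did not pass, with a median of 9.93 points. The defensin gene PDF1.2 ranked 61.8 and 59.2 against 18.2 and 25.2, higher by 38.8 ± 2.89 points. Its relative LCR67 ranked 67.0 and 61.5 against 9.93 and 8.92, higher by 54.8 ± 2.27 points, while LCR69 and LCR68 were lower as given above. Both PDF1.2 and LCR67 entered through the WT arrays alone, so the filter fixed their direction. EFR, the receptor of bacterial EF-Tu, ranked 76.0 and 79.0 against 63.9 and 70.8, and BIK1, a kinase of immune signalling, 98.2 and 97.8 against 87.7 and 88.7. They were higher by 10.1 and 9.75 points. PDF1.2b was higher by 9.03 ± 2.06 points, but its probe set carries the suffix that marks probes shared with other genes. In the jasmonate list JRG21, an oxygenase gene induced by jasmonate, ranked 99.1 and 98.5 against 84.6 and 80.8, and AIM1, of beta-oxidation, was higher by 3.79 points. THI2.1, a thionin gene, was at the lowest value on both WT arrays and ranked 80.5 and 68.0 in seedlings, at least 32.6 points apart. It entered through the mock arrays alone. OPCL1, of jasmonate synthesis, did not pass (92.9 and 92.7 against 92.9 and 93.8). EFR did not pass with WT array 1, WT array 2 or mock array 1 left out (highest adjusted p = 0.164). The call of PDF1.2b ended when WT array 2, mock array 1 or mock array 2 was left out (highest adjusted p = 0.114). With any array left out the call of AIM1 was lost (highest adjusted p = 0.135). PDF1.2 and PDF1.2b had 21.4 and -4.01 points between the other 4 arrays. Without mock array 1 the difference of EFR was 6.68 points.

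Detoxification families held genes called in both directions. Of 8 tested P450 genes 4 were higher, all by at least 20 points, and 3 lower. Among them 1 entered through the WT arrays alone and 2 through the mock arrays alone, and 1 was higher and 1 lower of the 3 ranked at least 50 on all 4 arrays. CYP71B24 ranked 79.9 and 76.3 against 22.1 and 34.1, higher by 50.02 ± 4.74 points, and CYP71B6 99.5 and 99.1 against 76.6 and 80.5. Of 29 tested UDP glycosyltransferase (UGT) genes 10 were higher and 7 lower, 4 and 4 by at least 20 points. By the bound 3 of the lower ones passed 20 points. Of these genes 3 entered through the WT arrays alone and 4 through the mock arrays alone, and among the 22 ranked at least 50 on all 4 arrays 7 were higher and 4 lower. The UGT counts by call lie near the shares over all tested genes, 35.9% higher and 27.6% lower. UGT73D1 ranked 82.3 and 79.6 against 20.4 and 17.9, higher by 61.8 ± 1.63 points. UGT73C7 ranked 71.7 and 73.2 against 23.0 and 25.4 and UGT71B6 73.0 and 70.8 against 23.8 and 30.8. UGT72E1 and the flavonol glycosyltransferase gene UGT78D1 were at the lowest value on both WT arrays, at least 41.5 and 27.3 points below seedlings. In the list of glutathione transferases and related genes 5 of 13 were higher and 2 lower. In that list 1 entered through the WT arrays alone and 2, GSTU20 and GSTU27, through the mock arrays alone. Of its 10 genes ranked at least 50 on all 4 arrays 4 were higher and 0 lower. GSTU21 and GSTU22 were higher by 19.7 and 19.0 points, while GSTU27 ranked 44.9 and 39.2 against 80.4 and 76.9, at least 35.4 points lower, and GSTU20 was at least 46.6 points lower. Without the bound UGT72E1 had -66.6 points here and -42.5 points between the other 4 arrays.

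Autophagy genes ranked higher in WT protoplasts. Autophagy carries cell contents to the vacuole in vesicles coated with ATG8 proteins, and it is known to be induced when carbon or nitrogen runs short. Of 11 tested genes 9 were called higher, 4 of them by at least 20 points, and 2 did not pass, with a median of 14.0 points. Of the 11, 10 ranked at least 50 on all 4 arrays, and 8 of these were called higher. In that class 31.2% of all named genes were higher and 4.33% by at least 20 points. ATG8E, counted among the 9 and the 4, entered through the WT arrays alone, so the filter fixed its direction. ATG8E ranked 93.8 and 93.4 in WT protoplasts and 41.4 and 48.1 in seedlings, higher by 48.9 ± 2.62 points (adjusted p = 0.000977). ATG8H ranked 94.0 and 94.0 against 60.1 and 67.6, and ATG8F 96.9 and 96.9 against 69.8 and 66.2. Both pairs of groups lay apart, by 30.1 ± 2.92 and 28.9 ± 1.60 points. AT5G66930, listed as ATG101 of the initiation complex, ranked 80.9 and 82.7 against 58.2 and 63.2, higher by 21.1 ± 2.16 points. ATG3, which attaches ATG8 to lipid, and ATG8C did not pass, with 83.5 and 81.1 against 79.4 and 80.4 and 84.9 and 86.8 against 82.0 and 83.8.

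Genes of the ESCRT machinery, which sorts membrane proteins into multivesicular bodies on the way to the vacuole, stood likewise. Of 9 tested genes 8 were higher and 1 did not pass, with a median of 12.5 points, and all 9 ranked at least 50 on all 4 arrays. VPS60.2 ranked 87.2 and 89.1 against 59.0 and 63.2, higher by 27.0 ± 1.93 points. VPS60.1 ranked 92.7 and 92.8 against 69.4 and 74.4 and VPS24.1 87.7 and 88.3 against 74.9 and 74.1, higher by 20.9 and 13.5 points. VPS46.2 was the gene that did not pass (91.9 and 92.1 against 91.2 and 92.2). Of 9 tested exocyst and secretion genes 2 were higher and 1 lower. The Sec1-type genes SEC1B and KEU ranked 86.6 and 87.1 against 59.8 and 62.3 and 91.2 and 89.1 against 77.9 and 81.0, while the exocyst subunit gene SEC10 was lower by 10.04 points. SEC10 did not pass with WT array 2, mock array 1 or mock array 2 left out (highest adjusted p = 0.111).

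All 5 tested U-box ubiquitin ligase genes were called higher, 1 by at least 20 points, with a median of 14.0 points. PUB24, one of a trio with PUB22 and PUB23 that dampens immune responses, ranked 76.1 and 76.9 against 46.7 and 51.0, higher by 27.6 ± 1.83 points. PUB23 ranked 81.4 and 85.5 against 69.8 and 68.5 and PUB22 96.1 and 96.0 against 86.1 and 85.1, higher by 14.3 and 10.4 points. PUB43 was higher by 14.0 ± 2.27 points. Ubiquitin conjugating enzymes were less uniform, with 5 higher and 2 lower of 11. Through the WT arrays alone 1 entered, and 1, UBC29, through the mock arrays alone. Over the 9 ranked at least 50 on all 4 arrays 5 were higher and 1 lower. UBC32, of protein quality control at the ER, ranked 89.5 and 87.5 against 76.7 and 77.7, and UBC29 was lower, with 43.5 and 41.5 against 83.9 and 79.0. Of 12 tested ubiquitin-specific proteases 4 were higher and 2 lower, with UBP19 higher by 21.2 and UBP18 by 19.5 points. In this list 3 entered through the WT arrays alone, and of the 8 ranked at least 50 on all 4 arrays 1 was higher and 2 lower. The call of PUB43 ended when WT array 1 was left out (adjusted p = 0.0541).

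**Figure D4:**
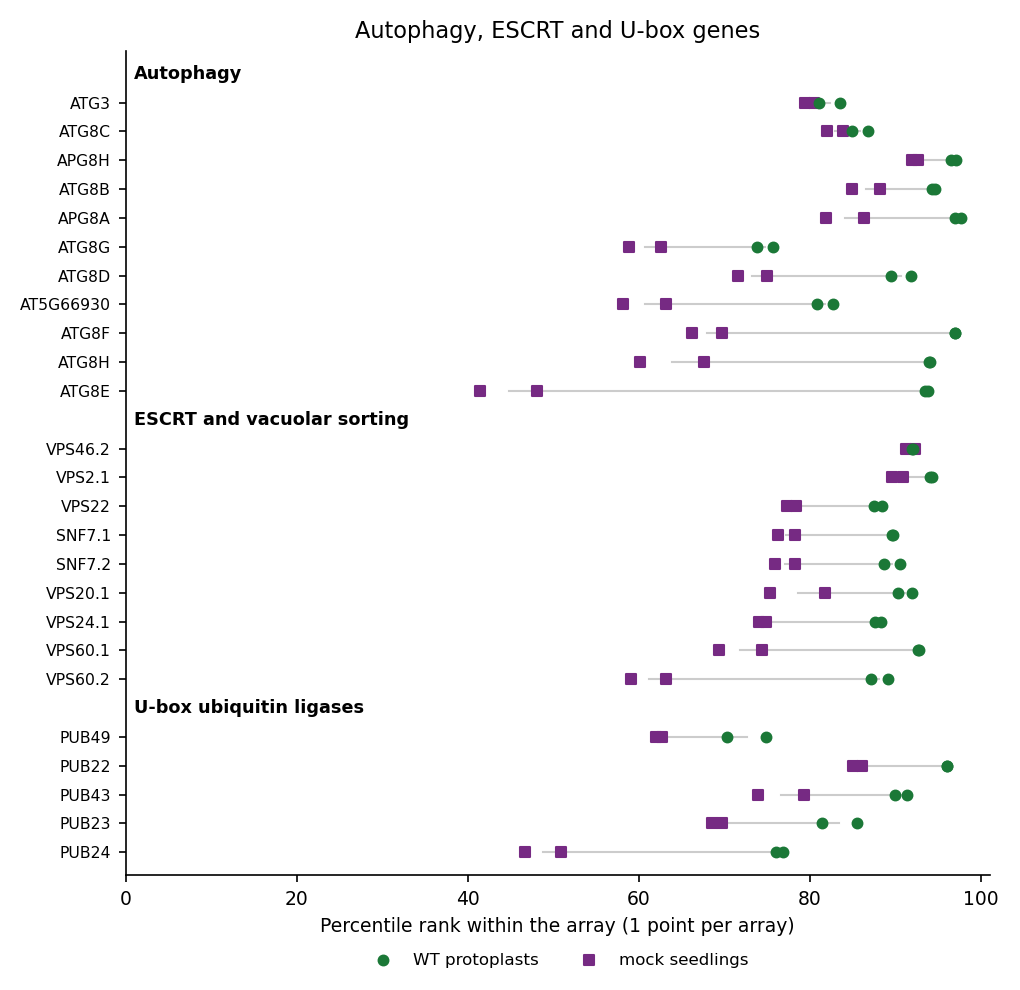
Percentile rank on each array (x axis) of the tested autophagy, ESCRT and U-box ligase genes. Green circles are the 2 WT protoplast arrays, purple squares the 2 mock seedling arrays, and grey lines join the group means. In the called genes the circles lie to the right of the squares, with the widest gap at ATG8E.

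Genes of sugar starvation and dark response were called higher in 4 and lower in 1 of 9 tested cases, with a median of 3.57 points. AKINBETA1, a subunit of the energy-sensing kinase SnRK1, ranked 80.5 and 77.0 against 38.0 and 36.4, higher by 41.5 ± 1.69 points. IVD, of branched-chain amino acid breakdown, ranked 82.4 and 83.9 against 59.4 and 61.6, higher by 22.6 ± 1.34 points, and PPDK was higher by 11.7 points. MCCA and MCCB, of the leucine breakdown that IVD also serves, ranked 53.5 and 52.8 against 52.0 and 51.8 and 59.8 and 58.6 against 57.6 and 59.5 and did not pass. EXO, linked to growth promoted by brassinosteroids, ranked 43.4 and 47.3 against 90.1 and 90.8, lower by 45.1 ± 1.73 points. AKINBETA1 entered through the WT arrays alone and EXO through the mock arrays alone, so the filter fixed their directions. The seedlings had been raised on sucrose and the source plants of the protoplasts on soil, and the part of this in these ranks was not tested. With either WT array left out the call of PPDK was lost (highest adjusted p = 0.0909). For IVD the other 4 arrays gave 14.6 points.

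Starch genes were called in all 4 tested cases. Among them 2 entered through the mock arrays alone, and 1 was higher and 1 lower of the 2 ranked at least 50 on all 4 arrays. AMY1, a secreted alpha-amylase gene, ranked 77.0 and 78.1 against 59.6 and 61.7, higher by 16.9 ± 1.25 points. SBE2.2, a starch branching enzyme gene, ranked 64.6 and 60.2 against 87.2 and 87.7, and APL3, an ADP-glucose pyrophosphorylase subunit gene, 49.8 and 45.7 against 61.2 and 58.6. Both were lower, by 25.04 and 12.1 points, and DPE1, of starch breakdown in the plastid, was at least 24.7 points lower. APL3 did not pass with mock array 1 left out (adjusted p = 0.0627). Between the other 4 arrays the difference of AMY1 was 25.5 points.

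Nuclear genes of the respiratory chain were called higher in 5 of 7 tested cases, each by under 20 points. NDB3, an alternative NADH dehydrogenase gene, ranked 57.2 and 57.1 against 39.97 and 40.6, and the succinate dehydrogenase gene SDH2-2 96.3 and 95.1 against 85.1 and 85.3. They were higher by 16.9 and 10.5 points. SDH2-1 and CYTC-2, a cytochrome c gene, were higher by 5.92 and 4.03 points at ranks of at least 98.8 in protoplasts, where little room is left on the scale. Of 12 tested genes of citrate and isocitrate metabolism, 3 of which are the same succinate dehydrogenase genes, 5 were higher and 3 lower. The isocitrate dehydrogenase genes ICDH and IDH-VI were higher by 18.7 and 13.6 points. The ATP citrate lyase genes ACLA-2, ACLB-1 and ACLA-1 were lower by 21.4, 10.6 and 6.48 points. Aldehyde dehydrogenase genes were lower in 6 of 8 tested cases, with a median of -12.1 points. ALDH11A3 ranked 59.9 and 55.8 against 89.7 and 91.2, and ALDH3F1 was at least 51.1 points lower. The call of SDH2-1 ended when either WT array was left out (highest adjusted p = 0.0567). With any array left out the call of CYTC-2 was lost (highest adjusted p = 0.133). ACLB-1 did not pass with either mock array left out (highest adjusted p = 0.0794). The call of ACLA-1 ended when WT array 2, mock array 1 or mock array 2 was left out (highest adjusted p = 0.107). ACLA-1 had -3.44 points between the other 4 arrays.

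Of 6 tested ER folding genes, 1 was higher, BZIP28, by 4.298 points, and 5 did not pass. Of 3 tested heat shock genes 1 was lower, AT5G48570, listed as FKBP65, by 5.19 points, and Hop3 and BOB1 did not pass. Antioxidant genes were higher in 3 and lower in 1 of 7 tested cases. The gene of the thylakoid ascorbate peroxidase, TAPX, lay within 0.1 of the lowest WT values, at least 43.4 points below seedlings. The gene of its stromal relative, SAPX, ranked 96.3 and 96.5 against 92.1 and 91.9, higher by 4.38 points. Of 6 tested calcium-binding and touch genes 2 were higher and 4 did not pass. CML37, a calmodulin-like gene induced by wounding, ranked 90.9 and 90.8 against 38.7 and 43.8, higher by 49.6 ± 2.11 points (adjusted p = 0.000638), and CML38 was higher by 6.69 points. CML37 entered through the WT arrays alone and TAPX through the mock arrays alone, so the filter fixed their directions. With any array left out the calls of BZIP28 and SAPX were lost (highest adjusted p = 0.123). AT5G48570 did not pass with WT array 1, WT array 2 or mock array 2 left out (highest adjusted p = 0.0907). The call of CML38 ended when either WT array was left out (highest adjusted p = 0.0842). For SAPX the other 4 arrays gave 1.65 points.

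Cold, drought and abscisic acid genes were lower in 4 and higher in 2 of 10 tested cases, with a median of -3.82 points. The dehydrin gene LTI30 ranked 69.6 and 70.8 against 97.2 and 96.8, lower by 26.8 ± 1.02 points. AT1G54410, listed as a dehydrin, was lower by 19.7 points and COR47 by 4.82. LEA4-5, a late embryogenesis gene, ranked 53.7 and 56.8 against 27.6 and 26.5, higher by 28.2 ± 1.498 points. It entered through the WT arrays alone, so the filter fixed its direction. With any array left out the call of COR47 was lost (highest adjusted p = 0.11). Between the other 4 arrays the difference of AT1G54410 was -4.97 points.

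**Figure D5:**
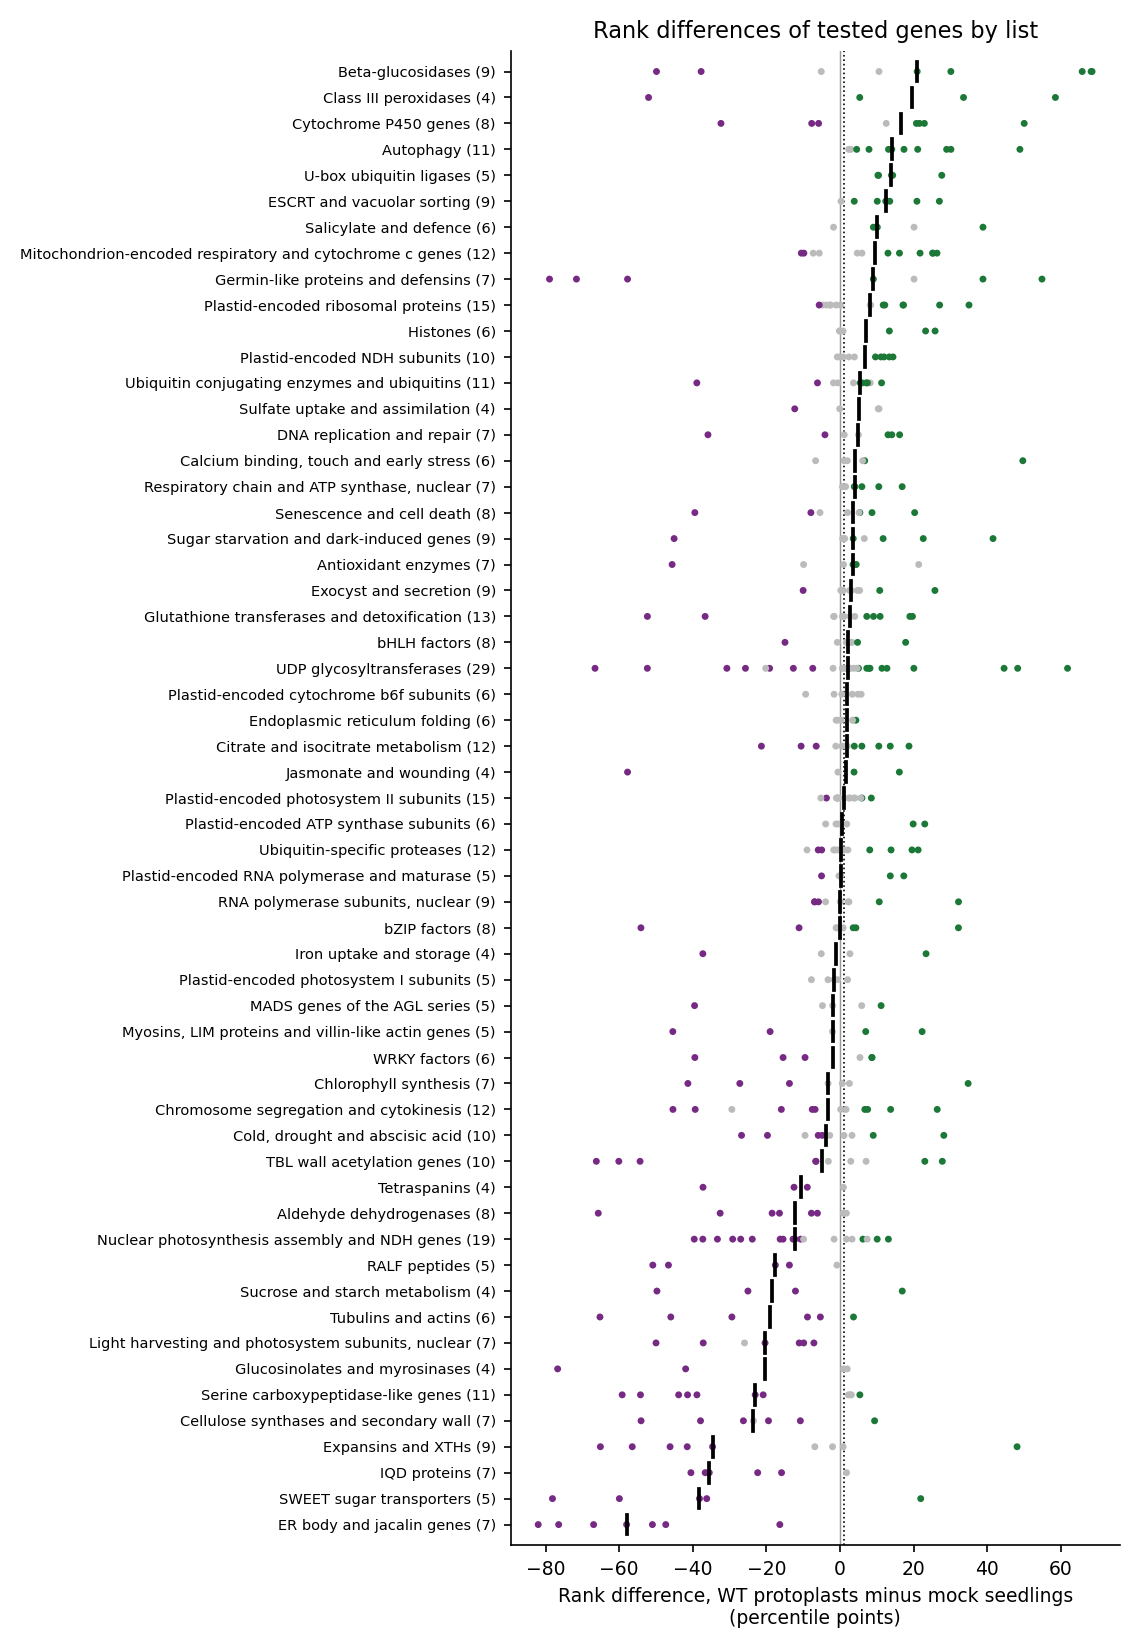
Rank differences in percentile points (x axis, WT protoplasts minus mock seedlings) of the tested genes of each list with at least 4 tested genes (number in brackets). Each point is 1 gene, green where called higher, purple where called lower and grey where not called, and black bars are list medians. The dotted line is the median over all 6749 tested genes, 1.01 points. The lists include genes that entered through 1 system alone. Medians run from -58.0 points for ER body genes to 20.9 points for beta-glucosidases.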

How the data were processed

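Expression was measured on Affymetrix Arabidopsis arrays. The authors deposited one log2 value per probe set and array, and GCRMA and RMA are listed in the submitters' processing notes, with no word on which arrays went through which. Total RNA had been isolated with a spin-column kit and hybridised by a service provider, per the labels' protocols. As the 2 systems differ in lowest value and median, the deposited log2 values were turned into percentile ranks within each array, over 22746 of 22810 probe sets after 64 controls were left out, with ties averaged. Ranks change with every other probe set of an array and compress differences near 0 and 100.

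Probe sets ranked at least 50 on at least 2 of the 4 arrays were fitted with limma 3.58.1 in R 4.3.3, WT protoplasts minus mock seedlings, two-sided, with Benjamini-Hochberg adjustment over 12762 probe sets and a threshold of 0.05. The residual degrees of freedom were 2. The steps were run on data simulated from the mock arrays alone. These lacked the tied lowest values and the scale of the WT arrays, so the run does not test how the steps handle them. GEO's platform annotation gave 13513 probe sets 1 symbol, 503 several and 8730 none, of which only the first were named. Symbols were updated through RefSeq locus tags for 13508 of them, and the probe set of highest mean rank stood for each of 13355 genes. The members and lists were chosen with earlier results of these data known, the symbol families after the probe annotation was seen, and 16 list members whose synonyms name another gene were taken out after values had been seen.

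The genes named were up to 12 per direction with the largest difference among called genes without overlap, up to 8 per direction among genes ranked at least 50 on all 4 arrays, and up to 4 called genes per direction of each list with at least 4 tested genes. Of shorter lists every tested gene could be named, and all tested cell type markers were. Shared replicate numbers do not pair these arrays: over 12762 probe sets arrays with the same number deviated from the mean of their group with a correlation of -0.0317. No sequence is shown, as the reference tables used here hold none, and the planned description of promoter motifs was not run.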

Additional observations from a re-analysis of the deposited data

How the results depend on the processing

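The filter on low ranks moved the counts most. Of 8093 probe sets called, 4397 of them higher in WT protoplasts and 3696 higher in mock seedlings, the fit without a filter on 22746 probe sets gave 13637 probe sets called, 7474 probe sets higher in WT protoplasts and 6163 probe sets higher in mock seedlings. With rank 50 required on all 4 arrays the numbers were 5219, 2922 and 2297 of 9258, and with at least 20 points 794, of which 380 and 414. With a mean rank of at least 50, 1800 passed with at least 20 points, 944 of them higher in mock seedlings. With ranks over listed genes alone, 7492 probe sets, they were 4568, 2461 and 2107, and with at least 20 points 1538, of which 679 and 859. Fewer or more probe sets enter these fits by construction. Leaving out 1 array gave 6210 to 6856 called, 3190 to 3954 higher in WT protoplasts and 2764 to 3064 higher in mock seedlings. With at least 20 points that gave 2481 to 2796, of which 1150 to 1293 and 1300 to 1581. The replicate block gave 7231 called, 3911 and 3320 by direction, and 2760 with at least 20 points. The rule of no overlap and at least 20 points, added after seeing the data and with no test, gave 2871. Among 311 named genes, 253 to 258 kept direction and side of the threshold with 1 array left out, 282 with the replicate block and 264 in the other 4 arrays, which share systems and processing with these and are not independent.

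Medians of lists changed sign in few cases. With rank 50 required on all 4 arrays the median rank difference was 0.609 for Chlorophyll synthesis, -0.504 for Plastid-encoded ribosomal proteins, 2.92 for Serine carboxypeptidase-like genes and 0.163 for Chromosome segregation and cytokinesis. With a mean rank of at least 50 it was -31.3 for Germin-like proteins and defensins, 2.51 for Serine carboxypeptidase-like genes and 0.163 for Chromosome segregation and cytokinesis. Germin-like proteins and defensins had -4.01 in the other 4 arrays. Plastid-encoded photosystem II subunits had -0.429 without WT replicate 2 and -0.237 without mock replicate 2, and up to 1.83 with another array left out. PDF1.2b, called higher, had -4.01 in the other 4 arrays (adjusted p = 0.37). Genes that were not called also changed sign. In the other 4 arrays MCCB had -2.44, Hop3 1.55, OPCL1 0.435, VPS46.2 -0.350 and VHA-A2 1.52 points. With ranks over listed genes alone MCCB had -0.0703 and VPS46.2 -0.0444. With 1 array left out MCCB ranged from -0.244 to 1.62, VPS46.2 from -0.255 to 0.769, BOB1 from -0.640 to 0.0242, UGT78D2 from -1.32 to 10.6 and VHA-A2 from -1.51 to 0.0506 points. The cause was not tested for any of these.

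With 2 arrays per group, SEs combine 2 residual degrees of freedom of each probe set with 1.65 from the spread shared across probe sets. The 41.6% and 40.7% of probe sets near the lowest value on the WT arrays carry no order there, so falls into that range are bounds and differences within it cannot be seen. Ranks near 100 leave little room to move, and ranks give no amount of RNA. System, tissue, age, medium, genotype, mock treatment and array processing differ together between the groups and cannot be told apart.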

Other observations

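Genes of nuclear regulation went both ways in WT protoplasts against mock seedlings. Of 8 tested bZIP factor genes 3 were called higher and 2 lower. BZIP24 ranked 62.3 and 58.9 on the WT arrays against 29.4 and 27.5 on the mock arrays, higher by 32.2 ± 1.68 points (limma, adjusted p = 0.000924). bZIP44 was at or near the lowest value on both WT arrays and ranked 83.5 and 77.1 in seedlings, at least 38.7 points apart. WRKY factor genes were higher in 2 and lower in 3 of 6 tested cases. WRKY53, a factor that promotes leaf senescence, was at or near the lowest value on both WT arrays, at least 24.2 points below seedlings, and WRKY6 was higher by 8.67 points. Among senescence and cell death genes BETA-VPE, a vacuolar processing protease gene, ranked 80.8 and 78.1 against 58.0 and 60.3, and its relative GAMMA-VPE was lower by 7.93 points. The auxin conjugation gene GH3.17 ranked 74.5 and 75.7 against 26.7 and 27.7, higher by 47.9 ± 1.07 points. BZIP24 and GH3.17 entered through the WT arrays alone and bZIP44 and WRKY53 through the mock arrays alone, so the filter fixed their directions. bZIP44 did not pass with mock array 1 left out (adjusted p = 0.0537). The call of WRKY53 ended when either mock array was left out (highest adjusted p = 0.0853). With either WT array left out the call of GAMMA-VPE was lost (highest adjusted p = 0.0823).

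Genes of chromatin and the cell cycle stood as follows. Of 6 tested histone genes 3 were called higher and 3 did not pass. HTB2, an H2B gene, ranked 70.7 and 79.8 against 56.9 and 47.1, and the linker histone gene HIS1-3 was higher by 13.4 points. In the list of nuclear RNA polymerase subunits the large subunit gene NRPC1 of RNA polymerase III ranked 64.2 and 62.8 against 33.1 and 29.6, higher by 32.2 ± 1.65 points. NRPA1 and NRPA2, the large subunit genes of RNA polymerase I, were lower by 6.90 and 6.96 points. Of 12 tested genes of chromosome segregation and cytokinesis 4 were higher and 5 lower. Of these genes 2 entered through the WT arrays alone and 3 through the mock arrays alone, and among the 7 ranked at least 50 on all 4 arrays 2 were higher and 3 lower. CDC27a, of the anaphase-promoting complex, ranked 59.2 and 61.1 against 35.9 and 31.7, higher by 26.4 ± 1.93 points. ATMAP65-6, of the microtubule bundling family, was at or near the lowest value on both WT arrays, at least 24.4 points below seedlings. The DNA repair gene RAD5 was likewise at least 10.8 points lower, while ATLIG4, a DNA ligase gene, was higher by 13.0 points. HTB2 did not pass with WT array 2 or mock array 2 left out (highest adjusted p = 0.0834). The call of HIS1-3 ended when either WT array was left out (highest adjusted p = 0.115). With WT array 1, mock array 1 or mock array 2 left out the calls of NRPA1 and NRPA2 were lost (highest adjusted p = 0.0808). ATMAP65-6 did not pass with either mock array left out (highest adjusted p = 0.0967). NRPA1 and NRPA2 had -12.2 and -15.0 points between the other 4 arrays.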
